A study of Arabidopsis thaliana with 22 samples.

Results

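MYB67 (AT3G12720) is the gene mutated in the line under study, and its row of counts was followed through all 22 libraries of the series. It is 1 gene of 33323 in the deposited table and of 21683 that passed the filter on low counts. The libraries are bulk mRNA sequencing of the upper primary root of Arabidopsis thaliana, a segment of 1.5 cm taken below the hypocotyl base after 14 days on agarose medium, with lateral roots cut away and about 40 seedlings per biological replicate. Wild type (WT, accession Col-0) was grown on the same plates as myb67-1, a line in the Col-0 background, and no treatment was given to either genotype. Experiment 1 has 6 libraries of each genotype and experiment 2 has 5 of each. The sources used here do not say whether the experiments differ in more than their libraries.

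MYB67 belongs to the R2R3-MYB proteins, a large plant family of transcription factors that bind DNA through a pair of MYB repeats. The title of the series ties MYB67 to the maturation of phellem, the outer cork layer that the cork cambium (phellogen) forms in roots that thicken. Phellem walls carry suberin, a polyester of long-chain fatty acids, fatty alcohols, glycerol and ferulic acid, and several R2R3-MYB proteins are known activators of the genes that make it.

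In the annotation of TAIR10.1 the gene lies on the minus strand of chromosome 3, from 4043288 to 4044715, a span of 1428 bases. Exon 1 (4044360 to 4044715) has 356 bases, the intron (4044168 to 4044359) has 192 and exon 2 (4043288 to 4044167) has 880. The coding parts are 163 bases of exon 1 and 761 bases of exon 2, which encode 307 amino acids. No annotated gene overlaps the span, so no overlapping gene can lend it reads. The 250 bases upstream of the annotated start (RefSeq annotation of TAIR10.1, chr3:4044716-4044965, minus strand) are shown because the level of this gene is the subject of the results. The capitals mark the only match, on either strand, to the core of the abscisic acid response element, ACGTG, which starts 13 bases before the transcript start.

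MYB67 upstream: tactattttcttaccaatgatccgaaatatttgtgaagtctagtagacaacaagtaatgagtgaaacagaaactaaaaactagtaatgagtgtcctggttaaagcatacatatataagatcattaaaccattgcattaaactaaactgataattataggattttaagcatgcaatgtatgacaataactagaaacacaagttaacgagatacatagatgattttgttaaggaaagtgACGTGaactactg

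The ACGTG core is in 22.9% of the 27443 upstream windows of the same length, so its presence is common. No match was found for the AC element ACCNANC (in 27.8% of windows), the MYB cores CNGTTA (26.6%) and CNGTTG (20.3%), the W-box core TTGAC (44.9%), the G-box CACGTG (6.49%, whose letters include ACGTG), the heat shock element core GAANNTTC (9.55%) or the TATA box TATAAA (47.3%). These searches describe the letters of the window and nothing of which factor binds there.

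MYB67 RNA was detected in every library, and it was higher in myb67 than in WT in both experiments. Levels are given in CPM, the count of a gene set against the scaled total of its library. In experiment 1 the 6 WT libraries ran from 5.95 to 7.18 CPM with a median of 6.62, and the 6 myb67 libraries ran from 9.997 to 14.6 CPM with a median of 10.9. In experiment 2 the WT libraries 1 to 5 had 13.6, 12.2, 11.6, 8.79 and 6.68 CPM. The myb67 libraries 1 to 5 of experiment 2 had 15.2, 14.6, 19.1, 23.8 and 17.2 CPM. Within each experiment the lowest myb67 library lay above the highest WT library, by a wide margin in experiment 1 and by less than 1 CPM in experiment 2. Such a separation held for 0.567% of genes in experiment 1 and 0.922% in experiment 2. The groups do overlap across experiments, since 3 WT libraries of experiment 2 lay above the lowest myb67 libraries of experiment 1.

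**Figure D1:**
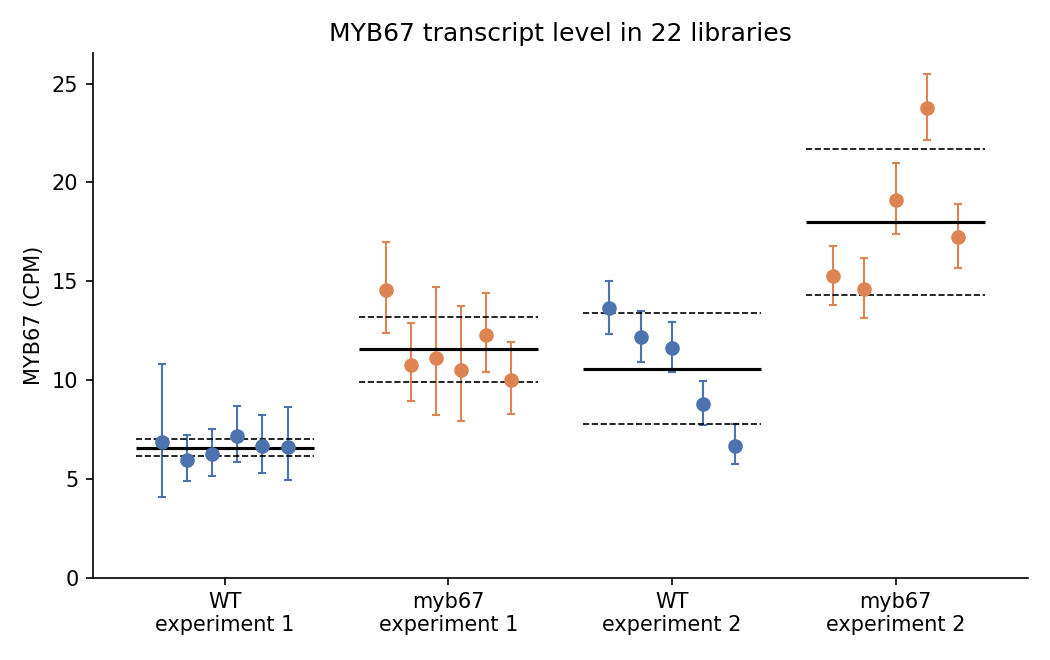
MYB67 in CPM (y axis, from 0) in each of the 22 libraries, in 4 groups of genotype and experiment (x axis). Points are libraries with exact 95% Poisson intervals of their counts, solid lines are group means and dashed lines are 1 SD above and below the mean; both myb67 groups stand above the WT group of their own experiment, and the spread is narrowest in WT of experiment 1 (5.95 to 7.18 CPM).

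In experiment 1 the WT mean was 6.58 ± 0.437 CPM (SD, n = 6), and the mutant mean was 11.5 ± 1.66 CPM (SD, n = 6). The WT mean of experiment 2 was 10.6 ± 2.79 CPM (SD, n = 5), against a mutant mean of 18.0 ± 3.68 CPM (SD, n = 5). With the experiments fitted together, myb67 over WT had a log2 fold change of 0.79 (approximate SE 0.11, 95% interval 0.58 to 1.01), a ratio of 1.73, with an adjusted p of 6.89e-05 from the quasi-likelihood F test of edgeR. All 11 myb67 libraries shared the direction. At that threshold (adjusted p under 0.05 over all genes) 0.816% of the genes tested were called higher, and MYB67 ranked 53rd by fold among those 177. Its libraries did not overlap in either experiment with myb67 on top, which was true of 36 genes, 0.166% of those tested. Without a term for the experiment the log2 fold change was 0.78 and the call was lost (adjusted p = 0.0550).

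The effect had a similar size in both experiments. It was 0.83 (SE 0.17, edgeR adjusted p = 0.0123) in experiment 1, where 0.314% of genes were called higher. It was 0.77 (SE 0.15, edgeR adjusted p = 0.00606) in experiment 2, where 0.623% were called higher. The difference between the experiments was -0.07 on the log2 scale (95% interval -0.50 to 0.37, edgeR adjusted p = 0.978, a test that called 0.0692% of genes), so an unequal effect was not detected, although differences up to the ends of that interval remain possible. The call in experiment 1 was lost with limma-voom (0.83, adjusted p = 0.146) and without WT replicates 3 and 6 (0.81, adjusted p = 0.104). The call in experiment 2 was lost when that experiment was fitted alone (0.77, adjusted p = 0.151).

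The labels call the line a mutant and do not say where the lesion of myb67-1 lies or what it does to the RNA. A count summed over the whole gene does not tell a full transcript from a shortened one, and the higher level therefore does not test the label. The authors' deposited table lists MYB67 with a log2 fold change of 0.795 (standard error 0.117, adjusted p = 4.71e-09). Its header does not state the direction, while its title names myb67 against WT, and the sign is the same as in the fits here.

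MYB67 was also higher in experiment 2 than in experiment 1, in both genotypes. In WT the difference was 0.70 on the log2 scale (SE 0.16, edgeR adjusted p = 5.63e-04), and in myb67 it was 0.63 (SE 0.15, edgeR adjusted p = 7.65e-04). These calls carry little weight for MYB67 itself, because 37.2% and 38.7% of all genes were called higher in experiment 2 in the same comparisons. The summed levels of several marker lists also stood apart between the experiments, with no overlap in WT. The summed level of 8 endodermis genes had a median of 351 CPM (range 302 to 646) in WT of experiment 1 and 74.1 CPM (27.1 to 87.9) in WT of experiment 2, and 5 root hair genes went from 177 CPM (134 to 231) to 19.6 CPM (4.64 to 24.7). In the other direction, 6 cambium genes went from 234 CPM (221 to 261) to 735 CPM (609 to 930), 4 phloem genes from 145 CPM (137 to 158) to 405 CPM (367 to 451), and 10 photosynthesis genes from 396 CPM (348 to 1605) to 2305 CPM (1906 to 2794). The part of these shifts in the level of MYB67 was not tested, and in bulk tissue a change in the number of cells of a type and a change in RNA per cell cannot be told apart. The deposited counts differ in kind between the experiments (steps of 0.5 in experiment 1, whole numbers in experiment 2), and any difference in handling cannot be told apart from the experiment.

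The precision behind these values differs between the experiments. Deposited totals ran from 3705515 to 17727642 counts per library in experiment 1 and from 23190477 to 32091009 in experiment 2. MYB67 had 18 to 111 counts per WT library and 49 to 161 per myb67 library in experiment 1, against 174 to 416 and 359 to 785 in experiment 2. The shallowest library, WT replicate 1 of experiment 1, gave 27.7% of its counts to 1 ribosomal RNA gene, and its 18 counts of MYB67 place the level between 4.06 and 10.8 CPM (exact 95% Poisson interval, which covers counting error only). A joint fit of both experiments without that library gave 0.79 on the log2 scale (SE 0.11, edgeR adjusted p = 1.32e-04).

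In WT of experiment 1 the libraries differed by less than counting error. The coefficient of variation of MYB67 was 6.64% there, where the counts alone would give about 14.1%. In myb67 of experiment 1 it was 14.4% against 10.4% from counting. In experiment 2 the spread was far above counting error, 26.4% against 5.74% in WT and 20.4% against 4.53% in myb67. The biological coefficient of variation that edgeR fitted for MYB67, 17.2%, exceeded the median of 10.2% over all genes.

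In experiment 2 libraries of the same replicate number were also compared as pairs, a pairing taken from the data and not stated by the labels. The fits above have no term for the pairs. The ratio of myb67 to WT was uneven over the 5 pairs. It was 1.12 in pair 1, 1.20 in pair 2, 1.65 in pair 3, 2.701 in pair 4 and 2.58 in pair 5. In pairs 1 and 2 the WT libraries were the highest of WT and the myb67 libraries the lowest of myb67. In pair 4 the myb67 library was the highest of all 22 while its WT partner was next to the lowest of WT in that experiment. All 5 pairs shared the direction, and a fit that keeps the pairs as a term gave a log2 fold change in experiment 2 of 0.78 (edgeR adjusted p = 0.00137). In that paired fit 1.50% of genes were called higher in experiment 2. Over all genes the deviations from the group means of same-numbered libraries went together (correlation across genes 0.285 to 0.671 over the 5 pairs). The values of MYB67 in pairs 1, 2 and 4 did not. Between differently numbered libraries the correlation ran from -0.550 (WT 4 with myb67 1) to 0.392 (WT 3 with myb67 1). WT 5 went slightly more with myb67 4 (0.307) than with myb67 5 (0.285), so the pairing is uncertain.

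**Figure D2:**
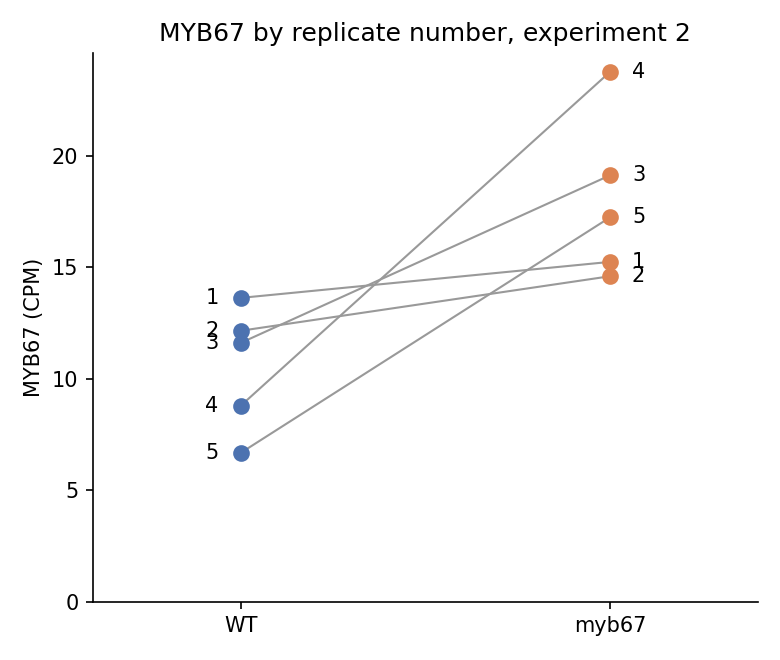
MYB67 in CPM (y axis, from 0) in WT and myb67 libraries of experiment 2 (x axis), with a line between libraries of the same replicate number, which is printed beside each point. Every line goes up, by a ratio of 1.12 to 2.701, and the lines cross because the WT order and the myb67 order differ.

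The rank of MYB67 within its gene family was taken from levels per length (CPM per kilobase of exon) over the 87 genes with a MYB symbol that were tested, of 116 in the annotation. In WT of experiment 1 MYB67 stood 38th with 5.32 ± 0.353 CPM per kilobase (SD, n = 6), between MYB50 with 5.85 ± 0.658 and MYB305 with 5.19 ± 1.57, neighbours within the spread. In myb67 of experiment 1 it stood 23rd with 9.34 ± 1.35 CPM per kilobase (SD, n = 6), next to MYB48 with 9.47 ± 1.51 and MYB13 with 8.93 ± 1.50. In WT of experiment 2 it stood 25th with 8.56 ± 2.26 CPM per kilobase (SD, n = 5), next to MYB52 with 8.94 ± 1.37 and MYB30 with 8.46 ± 2.35. In myb67 of experiment 2 it stood 13th with 14.6 ± 2.98 CPM per kilobase (SD, n = 5), below MYB51 with 18.6 ± 3.60 and beside MYB6 with 14.6 ± 0.810. MYB67 was thus a gene of the middle to upper range of the family in WT roots, and the most abundant members reached 55.5 CPM per kilobase (MYB34, WT of experiment 1) and 69.9 CPM per kilobase (MYB73, WT of experiment 2).

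Of the other 86 family members tested, 3 were called between the genotypes over both experiments (3.49%, beside 1.50% of all genes). MYB69, a gene grouped with regulators of secondary walls, fell by 5.47 on the log2 scale (SE 0.23, edgeR adjusted p = 2.34e-14). It had 3.43 to 4.95 CPM in WT and at most 0.227 CPM in myb67 in experiment 1, and 4.39 to 6.16 CPM against 0.0303 to 0.244 CPM in experiment 2, so its groups were far apart in both. In 0.138% of genes every myb67 library lay below every WT library in both experiments. MYB9 and MYB93, known or proposed activators of suberin genes, rose by 0.33 (SE 0.08, edgeR adjusted p = 0.0260) and 0.31 (SE 0.08, edgeR adjusted p = 0.0322). The 5 proteins most like MYB67 by identity were MYB50 (39.0%), MYB53 (37.4%), MYB85 (37.1%), MYB86 (36.6%) and MYB41 (36.4%). Identity was taken over all columns of a global alignment, gaps included. By that measure the longer MYB26 and AtMYB103 ranked lower, with more identical residues (140 and 139, beside 116 in MYB85 to 135 in MYB86). None of the genes of the 5 passed the test. MYB85, known from lignin and secondary wall synthesis, came closest at -0.77 on the log2 scale (SE 0.20, edgeR adjusted p = 0.0619), and DESeq2 called it (adjusted p = 0.00981). For MYB53 the log2 fold change was 0.10 (SE 0.10) and for MYB41, a strong activator of suberin synthesis when overexpressed, it was -0.06 (SE 0.17).

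The genes that flank MYB67 on chromosome 3 were examined because a lesion can touch more than one gene. None of the 5 tested genes on either side was called over both experiments, and their log2 fold changes ran from -0.42 (AT3G12685) to 0.18 (AT3G12730). The nearest tested gene, AT3G12710, a DNA glycosylase family member with a gap of 1212 bases to MYB67, had a log2 fold change of -0.19 (SE 0.14). NANA (AT3G12700), which encodes an aspartyl protease, fell by 0.48 on the log2 scale in experiment 2 (edgeR adjusted p = 0.0104), where 0.706% of genes were called lower. Its log2 fold change in experiment 1 was -0.07, and the difference between experiments was not called (edgeR adjusted p = 0.411).

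The suberin genes give the context in which MYB67 was mutated. Over both experiments 7 of the 20 genes of suberin synthesis and export were called, 4 higher and 3 lower, beside 0.816% of all genes higher and 0.687% lower. The list was chosen with earlier results of these libraries known, and the median log2 fold change of its members was 0.16 against 0.00 for all genes tested. FAR1, a fatty acyl reductase that makes the primary alcohols of suberin, fell by 1.97 on the log2 scale (SE 0.08, edgeR adjusted p = 2.34e-14). Its level in experiment 2 was 97.6 to 161 CPM in WT and 25.8 to 41.3 CPM in myb67. FACT, which couples caffeic acid to fatty alcohols, fell by 1.57 (SE 0.09, edgeR adjusted p = 3.21e-11), and FAR4, another fatty acyl reductase, fell by 0.33 (edgeR adjusted p = 0.0194). KCS2, an elongase of very long chain fatty acids, rose by 0.78 (SE 0.13, edgeR adjusted p = 4.93e-04), the exporter ABCG2 rose by 0.58 (SE 0.06, edgeR adjusted p = 1.18e-06), and GPAT5 and CYP86A1, which add glycerol and a terminal hydroxyl group to suberin monomers, rose by 0.35 and 0.36. Of the 18 suberin regulators 4 were called and all 4 rose, NAC038 by 0.55, NAC058 by 0.38 and the family members MYB9 and MYB93 by the values above.

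Within groups, no gene tracked MYB67 closely enough to be called. For this, each gene was regressed on the log2 CPM of MYB67 (prior count 2) with the 4 group means removed, so that neither genotype nor experiment can produce a slope, and the slope is the log2 change of the gene per doubling of MYB67. With a common slope over all 22 libraries 0 of 21682 genes were called by edgeR (lowest adjusted p = 0.456) and 737 had an unadjusted p under 0.05, which is 3.40% of them. DESeq2 called 1 gene and limma-voom 0. In the fit with a slope for each group, edgeR called 0 genes across WT libraries, where 711 (3.28%) had an unadjusted p under 0.05. It called 0 across myb67 libraries (809 genes, 3.73%, unadjusted), 0 for the difference between genotypes (916, 4.22%), 0 in experiment 1 (650, 3.00%) and 0 in experiment 2 (502, 2.32%). DESeq2 gave 0 calls in these comparisons other than 2 in experiment 2, and limma-voom gave 0 in all 5. In the paired fit 1 gene was called in experiment 2 (0.00461%).

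The genes whose pattern was most like that of MYB67 were named by Pearson's r of deviations from group means over 22 libraries, among genes that averaged 1 CPM or more and had r of one sign in each group. They were chosen for their r, so these values describe them and test nothing. All of the r share the same 22 values of MYB67. Over all genes r had a median of 0.00, and 95% of genes lay between -0.38 and 0.42. The highest was AT4G31040, which encodes a protein like the chloroplast proton extrusion protein CemA, with r = 0.73 (Spearman's rho 0.74, and r = 0.62 without the 2 libraries farthest from the median of MYB67). HA4, a plasma membrane proton ATPase, followed with r = 0.69 (rho 0.74, and r = 0.62 without these 2 libraries). Then came the alpha/beta-hydrolase AT4G24140 (r = 0.68), the peroxidase AT3G21770 (0.67), the protein kinase AT1G09440 (0.67), the alpha/beta-hydrolase AT3G23570 (0.66), the peroxidase AT2G38380 (0.65) and UXS3, which makes UDP-xylose for cell walls (0.63).

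HA4 and AT4G24140 also differed between the genotypes, which the choice by r did not use. HA4 rose by 0.55 (SE 0.08, edgeR adjusted p = 1.39e-04) and AT4G24140 by 0.43 (SE 0.07, edgeR adjusted p = 5.58e-04). Of all genes tested, 0.816% were called higher. In experiment 2 the WT libraries 1 to 5 had 45.7, 44.1, 56.1, 36.8 and 34.5 CPM of HA4, and the myb67 libraries had 72.8, 62.0, 78.1, 75.4 and 64.5 CPM. The WT libraries 4 and 5, lowest in MYB67, were lowest in HA4 too, a likeness for which HA4 was chosen. Among the myb67 libraries the order differed, with HA4 highest in replicate 3 and MYB67 highest in replicate 4. Every myb67 library of that experiment lay above every WT library in HA4, as in 0.922% of genes tested. In experiment 1 HA4 ran from 19.9 to 22.3 CPM in WT (median 20.5) and from 22.2 to 30.6 CPM in myb67 (median 28.5), so 1 myb67 library fell inside the WT range.

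Among genes that met the same conditions on level and sign, ALATS, an alanyl-tRNA synthetase, had the lowest r (-0.71). Next were the receptor-like kinase AT5G56040 (-0.71) and BHLH101, a transcription factor of the iron deficiency response (-0.70). The SAUR-like gene AT2G24400 (-0.68) and GH3.1, an auxin-responsive GH3 family gene (-0.68), followed. CYP82C4, a cytochrome P450 that acts in the synthesis of iron-mobilizing coumarins, had -0.67. Last were the CW-type zinc finger gene AT4G15730 (-0.65) and the LAMMER-type kinase gene AT4G24740 (-0.64). None of the 16 genes had an adjusted p under 0.456 for its common slope. In experiment 2 BHLH101 had 0.819, 1.52, 0.941, 1.31 and 1.77 CPM in WT libraries 1 to 5 and 1.55, 1.75, 0.719, 1.03 and 1.32 CPM in the myb67 libraries. Its levels overlapped between the genotypes, and its log2 fold change was 0.27 (SE 0.19).

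The suberin genes as a list leaned with MYB67. Over 22 libraries all 20 had a positive r, from 0.07 (KCS20, an elongase) to 0.67 (AT1G74460, a GDSL lipase family gene), with a median of 0.42 beside 0.00 for all genes. For 10 of the 20 the common slope had an unadjusted p under 0.05 with a positive sign, beside 2.28% of all genes, and 0 were called by edgeR after adjustment over all genes (the lowest adjusted p of a member rounds to 1.00). Members of the list vary together, so their count is not a count of independent observations. The lean stood in experiment 2, where the median r was 0.63 and 20 of 20 were positive, against 0.09 and 13 of 20 in experiment 1.

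The median r of the suberin list was higher in WT than in myb67, while a difference in slope between the genotypes was not called for any member. Across the 11 WT libraries the median r was 0.65 and 20 of 20 were positive, with medians of 0.57 to 0.69 when each WT library was left out in turn. Across the 11 myb67 libraries the median r was 0.04 and 12 of 20 were positive, with medians of 0.00 to 0.18 on leaving out each library. CYP86A1, the fatty acid hydroxylase, had r = 0.74 in WT and 0.36 in myb67, FACT had 0.77 and 0.21, FAR1 had 0.57 and -0.04, and FAR4 had 0.65 and -0.31. For the difference of the slopes between genotypes the lowest adjusted p of a list member was 0.948 (edgeR). The WT libraries of experiment 1 add little here, since their spread in MYB67 lay within counting error, and the WT pattern therefore rests mainly on the 5 WT libraries of experiment 2. In these the mean deviation of the 20 genes from their group mean was 0.21, 0.08, 0.19, -0.26 and -0.22 on the log2 scale for replicates 1 to 5, where the deviation of MYB67 was 0.41, 0.24, 0.18, -0.22 and -0.61. Replicates 4 and 5 were low in both, and the other 3 were high in both.

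**Figure D3:**
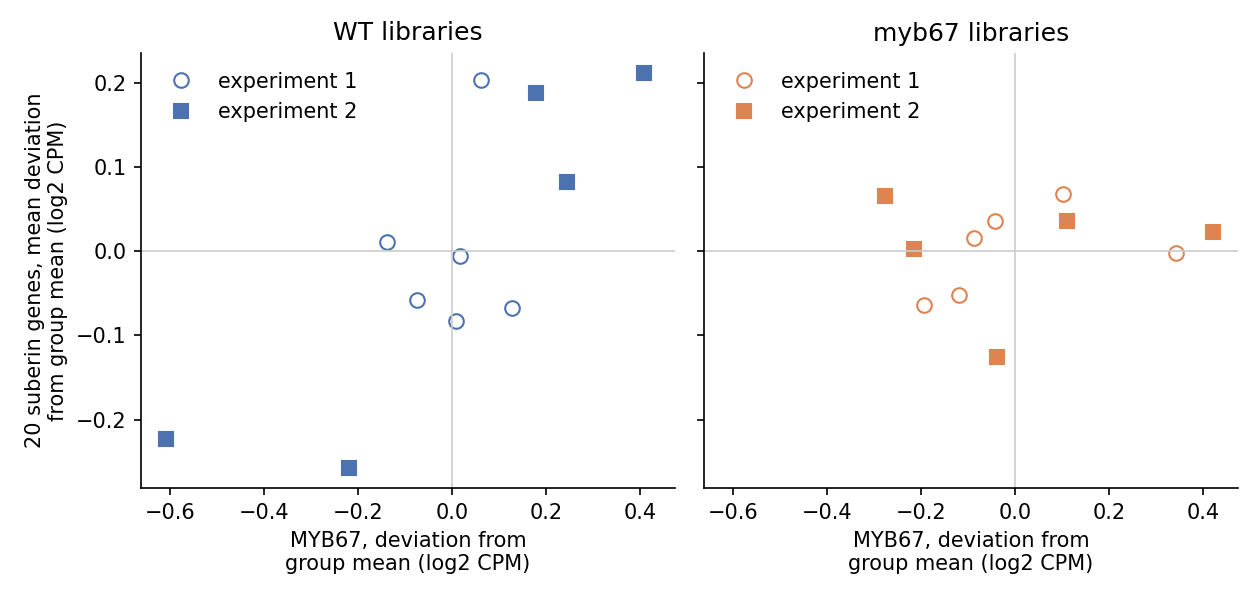
Mean deviation of the 20 suberin synthesis and export genes from their group mean (y axis, log2 CPM) against the deviation of MYB67 from its group mean (x axis, log2 CPM), for WT libraries on the left and myb67 libraries on the right. Open circles are libraries of experiment 1 and filled squares those of experiment 2; the WT squares fall in 2 sets, with 2 libraries low in both measures and 3 high in both, and the myb67 points show no such order.

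Other lists were set beside it in the same way, each with its median r over 22 libraries. The 18 suberin regulators had 0.17 (11 positive), with MYB93 highest at 0.55 and NAC046 lowest at -0.23. The 16 secondary wall MYB genes tested had 0.01 (9 positive). Of the cell type markers, the 6 cambium genes had 0.27 (6 positive), the 8 xylem genes 0.28 (7 positive), the 4 phloem genes 0.08 (2 positive), the 8 endodermis genes -0.19 (1 positive), the 5 root hair genes -0.14 (0 positive) and the 10 photosynthesis genes 0.14 (9 positive). With 1 library left out the medians ran from 0.13 to 0.45 for cambium, 0.17 to 0.38 for xylem, -0.03 to 0.18 for phloem, -0.40 to -0.05 for endodermis, -0.36 to -0.003 for root hair and 0.08 to 0.20 for photosynthesis. The suberin synthesis list ran from 0.30 to 0.47 and its regulators from 0.09 to 0.24. These r do not use the replicate pairs of experiment 2. With the pairs removed the suberin synthesis list had 0.38 (20 positive), the secondary wall genes 0.18 (15 of 16 positive), xylem 0.43 (8 positive), phloem 0.13 (4 positive), endodermis -0.10 (2 positive), root hair -0.04 (2 positive) and photosynthesis 0.06 (7 positive), beside 0.01 over all genes. No gene of the cell type marker lists was called between the genotypes over both experiments. The 7 heat shock genes tested had 0.20 (6 positive), and 4 of them were called higher in myb67, beside 0.816% of all genes, HSP70 by 0.77, HSP90.1 by 0.93, HSP101 by 0.50 and HSFA2 by 1.19.

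Across WT libraries alone, cambium markers had r values as high as those of the suberin genes. The median r was 0.73 for the 6 cambium genes (6 positive) and 0.44 for the xylem genes (8 of 8 positive), while it was -0.56 for the endodermis genes (0 of 8 positive) and -0.38 for the root hair genes (0 of 5 positive). In myb67 libraries these medians were -0.18, 0.11, 0.17 and 0.07, and each of them changed sign with 1 library left out (cambium -0.45 to 0.13, xylem -0.15 to 0.32, endodermis -0.13 to 0.57, root hair -0.34 to 0.31). In WT no median of the 4 lists changed sign, with ranges of 0.63 to 0.78 for cambium, 0.36 to 0.64 for xylem, -0.78 to -0.38 for endodermis and -0.59 to -0.29 for root hair. The lists also differed by experiment. Over both genotypes the median r in experiment 1 was 0.56 for xylem (8 positive), 0.44 for cambium (6 positive) and 0.47 for phloem (4 positive). In experiment 2 these medians were 0.10, 0.27 and -0.16, whereas the suberin genes had their high values there. The values of experiment 1 lean on myb67 replicate 1, where MYB67 deviated by 0.34, with -0.19 (myb67 replicate 6) next in size. Over 22 libraries the xylem median was lowest, 0.17, without myb67 replicate 1 of experiment 1. Among the cambium genes, the peptide receptor gene PXY had r = 0.68 in WT and 0.20 in myb67, and WOX4, a homeobox gene that promotes cambium activity, had 0.77 and -0.51. Markers of the cambium and xylem lists thus leaned one way and those of the endodermis the other way in the same WT libraries. The part of these markers in the pattern of the suberin genes was not tested.

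**Figure D4:**
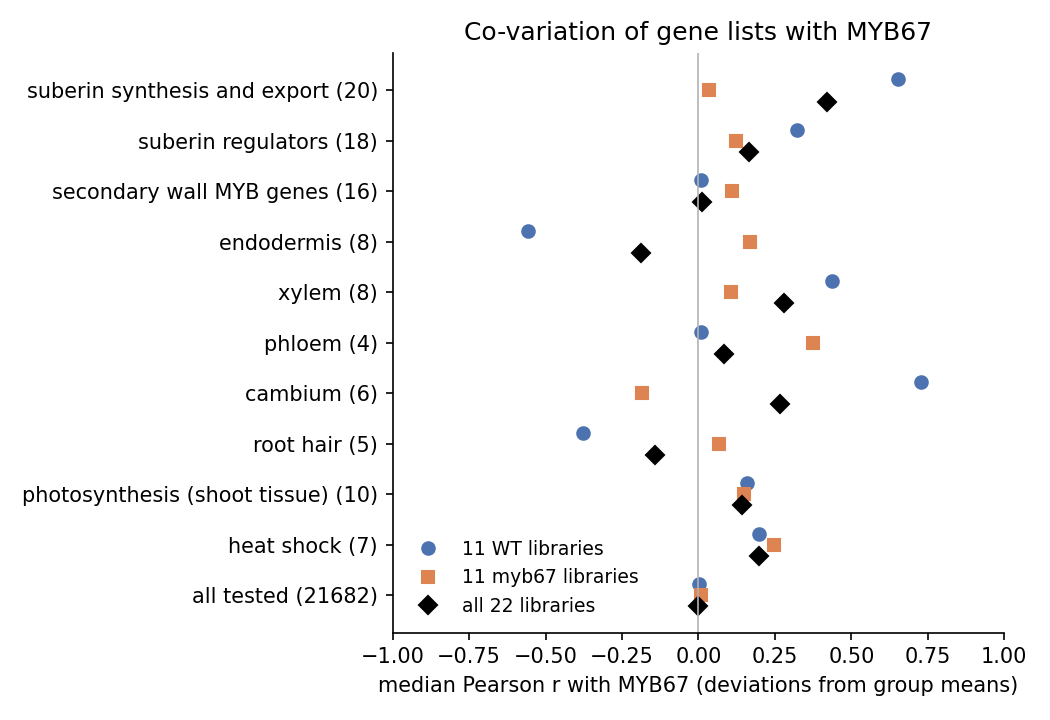
Median Pearson r with MYB67 (x axis) of each gene list (y axis, number of genes tested in brackets), from deviations from group means in the 11 WT libraries (circles), the 11 myb67 libraries (squares) and all 22 libraries (diamonds). Suberin synthesis and cambium genes lie at 0.65 and 0.73 in WT and near or below 0 in myb67, endodermis genes lie at -0.56 in WT, and all genes tested lie near 0.

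An alternative with 1 slope per genotype, pooled over both experiments, was added after the data had been seen, because the mean of the slopes gives as much weight to the near-flat WT libraries of experiment 1 as to those of experiment 2. It called 3 genes across WT libraries (0.0138% of genes), with 2933 at an unadjusted p under 0.05 (13.5%), and 0 across myb67 libraries with 972 (4.48%). In the fit with a slope for each group, 0 of the 20 suberin genes had an unadjusted p under 0.05 across WT libraries. The count was also 0 across myb67 libraries and 0 for the difference between genotypes. With pooled slopes 16 of the 20 had an unadjusted p under 0.05 with a positive slope in WT, beside 7.91% of all genes. In myb67 0 had, beside 2.32%. After adjustment 0 were called in WT (lowest edgeR adjusted p = 0.0872). For the difference between the genotypes in the same fit 5 of the 20 had an unadjusted p under 0.05, beside 13.9% of all genes. After adjustment 0 were called for that difference (lowest edgeR adjusted p = 0.233). The pattern was not particular to suberin genes. Of the 6 cambium genes 5 had an unadjusted p under 0.05 with a positive slope in WT, and 4 had one for the difference, with 0 called in either. CYP82C4 had a slope of -4.40 (SE 0.57, edgeR adjusted p = 0.00187) and FRO2, the ferric chelate reductase of root iron uptake, had -4.22 (SE 0.55, edgeR adjusted p = 0.00187). The third, AT3G26490, had a slope of 1.45 (SE 0.23, edgeR adjusted p = 0.0241). IRT1, the main iron transporter of the root epidermis, was looked up after these values were seen and had -3.61 (SE 0.64, edgeR adjusted p = 0.0702).

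These calls depended on single libraries and on the pairing. In experiment 2 CYP82C4 had 0.655, 1.12, 0.663, 2.25 and 15.8 CPM in WT libraries 1 to 5, FRO2 had 1.08, 2.47, 1.36, 4.11 and 25.4 CPM, and IRT1 had 1.47, 4.03, 2.96, 7.01 and 28.3 CPM. Replicate 5, the WT library with the least MYB67 in that experiment, was by far the highest for each of these genes. Without it 0 genes were called across WT libraries, and the slopes were -2.52 for CYP82C4 (edgeR adjusted p = 0.511) and -2.73 for FRO2 (edgeR adjusted p = 0.501). AT3G26490 was lost as well on leaving out WT replicate 1, 2 or 4 of experiment 2, and in a paired fit none of the 3 was. The counts of calls were as sensitive to myb67 libraries, since leaving out myb67 replicate 5 of experiment 2 gave 153 calls across WT libraries and leaving out its replicate 1 gave 142. All 3 iron genes were far higher in experiment 1, with medians in WT of 109 CPM for CYP82C4, 147 CPM for FRO2 and 177 CPM for IRT1.

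**Figure D5:**
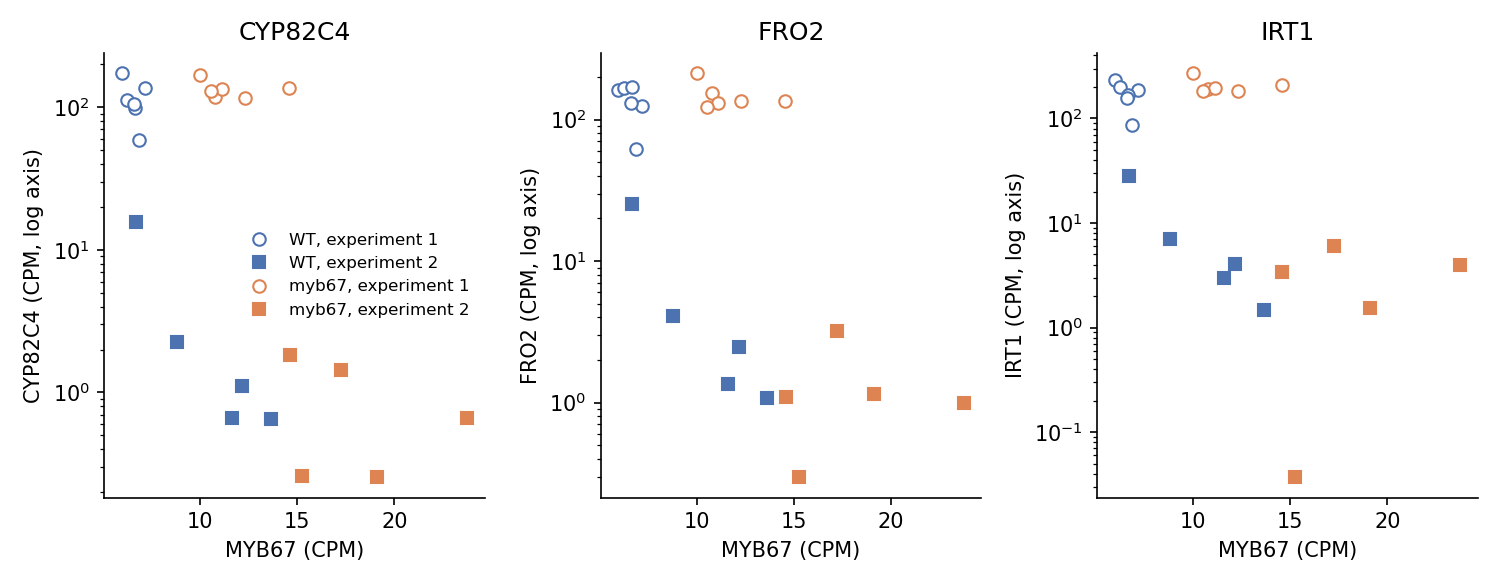
CYP82C4, FRO2 and IRT1 in CPM (y axes, log scale) against MYB67 in CPM (x axes) in the 22 libraries, WT in blue and myb67 in orange, with open circles for experiment 1 and filled squares for experiment 2. The WT library of experiment 2 with 6.68 CPM of MYB67 stands highest among the squares for each gene (15.8, 25.4 and 28.3 CPM), and all libraries of experiment 1 lie far above those of experiment 2.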

How the data were processed

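Per the labels, total RNA was extracted from each biological replicate with a plant RNA kit. The authors deposited expected counts per gene for experiment 1, in steps of 0.5, and raw counts for experiment 2; neither is normalized. The sources used here do not say how strand, paired ends or multi-mapping reads were treated, or why steps of 0.5 occur. Per the submitters' processing notes the tools were FastQC, Trimmomatic 0.39, STAR 2.7.10a, HOMER and DESeq2 1.40.1, with the build TAIR10 and no roles given. The authors' deposited comparison holds a log2 fold change with its error, an adjusted p-value and a mean signal per gene. Of the per-sample columns, 0 were left unused.

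Expected counts were rounded to whole numbers. Genes were kept by filterByExpr on the 4 groups, libraries were scaled by TMM, and quasi-likelihood F tests of edgeR 4.0.16 (R 4.3.3) were adjusted by the Benjamini-Hochberg method over all genes tested, with calls at 0.05. The genotype effect over both experiments had the experiment as a term; the other contrasts came from a fit of 4 group means, and slopes on MYB67 from fits with the group means. Each SE is the size of the log2 value over the square root of F, an approximation. Correlations are of deviations from group means of log2 CPM (prior count 2), without permutation p-values, since the genes named were chosen by r. The fits were tested on simulated data. MYB67 and the gene lists were chosen with earlier results of these data known. Named genes were MYB67, the 8 highest and the 8 lowest r, the 5 tested genes on either side, the 5 nearest proteins by identity (BLAST+ 2.17.0 and Biopython 1.88, from annotated coding sequences) and, in each list, the highest and lowest r and up to 4 called members; other list members, IRT1 and genes called by pooled slopes were named after their values were seen.

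Same-numbered libraries of the genotypes were taken as pairs where the correlation of their deviations across genes was over 0.1 in every pair. It was 0.285 to 0.671 in experiment 2 and -0.158 to 0.0430 in experiment 1, so only experiment 2 was taken to hold pairs. The main fits and correlations have no term for these pairs, which enter only the alternatives named as paired or as a replicate block. The labels say only that the genotypes were sown together. No 2 replicates were duplicates (chi-square per gene at least 2.15). The reference, TAIR10.1 with its RefSeq annotation, has the same nuclear sequence lengths as TAIR10 and gave names, positions and the upstream sequence. The alternatives were RLE scaling, no filter, a filter of 1 CPM in 5 libraries, limma-voom (limma 3.58.1), DESeq2 1.42.0, the replicate block, no experiment term, each experiment alone, another prior count (0.5), leaving out libraries, and pooled slopes.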

Additional observations from a re-analysis of the deposited data

Results flagged for a closer look

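The checks for a library apart from its group covered MYB67, the 16 genes of highest and lowest r, the flanking genes and the nearest relatives, 32 genes in 4 groups each, or 128 sets of values. Such a check picks about 1 set in 20 by chance, and it picked 5. MYB67 was not among them. ALATS had 363.6 CPM in myb67 replicate 4 of experiment 1, where the other 5 libraries had 330.5 to 337.7. GH3.1 had 12.2 CPM in WT replicate 1 of experiment 1, against 5.02 to 7.41 in the others. HUA1, a flanking gene, had 23.6 CPM in the same library, against 31.0 to 34.9, and that library is the shallowest of the series. CYP82C4 had 15.8 CPM in WT replicate 5 of experiment 2, against 0.655 to 2.25. MYB41 had 2.95 CPM in myb67 replicate 3 of experiment 1, against 1.17 to 1.81.

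One gene had a slope on MYB67 that differed between the genotypes, in the alternative with 1 slope per genotype. CYP81F2 (AT5G57220), a cytochrome P450 of indole glucosinolate modification, had a slope of -0.89 in WT and 1.43 in myb67, a difference of 2.32 (SE 0.35, edgeR adjusted p = 0.0266). Its level was 11.6 to 16.4 CPM in WT and 8.58 to 16.6 CPM in myb67 in experiment 1, and 9.11 to 17.6 and 8.21 to 17.4 CPM in experiment 2, so the genotypes overlapped. The call was lost in 8 of 22 fits with 1 library left out, and in a fit that keeps the pairs of experiment 2 as a term the difference was 1.35 (edgeR adjusted p = 1.00).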

How the results depend on the processing

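The higher level of MYB67 in myb67 kept its direction in every fit run. Leaving out each library in turn gave 0.73 to 0.85 over both experiments, 0.75 to 0.87 in experiment 1 and 0.64 to 0.87 in experiment 2, and every one of these was called. Over both experiments the call was lost without an experiment term (0.78, edgeR adjusted p = 0.0550). In experiment 1 it was lost with limma-voom (0.83, adjusted p = 0.146) and with the replicate block in both experiments (0.79, edgeR adjusted p = 0.0578). It was also lost there without the 3 shallowest libraries (0.86, edgeR adjusted p = 0.0544) and without WT replicates 3 and 6 (0.81, edgeR adjusted p = 0.104). In experiment 2 it was lost when that experiment was fitted alone (0.77, edgeR adjusted p = 0.151). The last 3 of these fits had fewer libraries, and the cause of the lost calls was not tested in any of them. With the replicate pairs of experiment 2 as a block the effect was 0.80 over both experiments and no call on MYB67 changed. Genes called for a slope on MYB67, 0 in each comparison, became 1 over all libraries and 2 in experiment 2 with DESeq2, and 1 (pairs of experiment 2) and 2 (block in both experiments) in experiment 2 with a replicate block. Pooled slopes, added after the data were seen, gave 3 in WT, 1 for the genotype difference and 1 in experiment 2. On leaving out each library, pooled or not, the counts ran from 0 to 5 over all libraries, 0 to 153 in WT, 0 to 2 in myb67, 0 to 238 for the genotype difference and 0 to 8 in experiment 2. In experiment 1 counting error exceeded the spread of MYB67 in WT (14.1% against 6.64%) but not in myb67 (10.4% against 14.4%).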
